A study of Mus musculus with 4 samples.

Results

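The genes described here encode the machinery of G2 phase and mitosis: the CDK1 and cyclin switch, spindle motors, kinetochore and checkpoint proteins, the enzymes of anaphase and the proteins that divide the cell. They were taken as the 40 gene symbols of a fixed list of mitotic kinases, cyclins, kinetochore and cytokinesis genes, matched to Ensembl gene IDs, and all 40 were found among the 37681 gene IDs of the count tables. The genes are listed by function, with no threshold on a measured value. Transcripts were counted by mRNA sequencing in cells grown from the bone marrow of C57BL/6 mice of wild-type genotype. The medium was DMEM holding serum (10%, fetal bovine) and supernatant of L929 cells (20%), which supplies M-CSF, the growth factor of macrophages. Cells received no stimulus or 100 nM Pam3Cys4, a synthetic bacterial-type lipopeptide sensed by TLR2 with TLR1, for 5 h as the titles give it. Each state was sequenced without shRNA and with an shRNA against lncRNA-COX2, a long noncoding RNA, which makes 4 groups of 1 library each. Both titles of the no-shRNA libraries hold the letters EV, which are not explained, so it is not known whether those cells held a control construct. Age, sex and the number of animals behind each library are not given in the labels.

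Entry into mitosis is driven by CDK1 bound to cyclin A2 or to a B-type cyclin, and exit by the anaphase-promoting complex (APC/C), a ubiquitin ligase that marks cyclins and the separase inhibitor securin for destruction. Most of the transcripts described here are made late in the cell cycle, when the MuvB core with B-MYB and FOXM1 acts at promoters holding a cell cycle genes homology region (CHR) and CCAAT boxes bound by NF-Y. In resting cells the DREAM complex, which shares the MuvB core, keeps the same promoters off. Macrophages grown from bone marrow divide as long as M-CSF is supplied, and stimulation through Toll-like receptors is known to slow their division.

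The libraries held between 47385277 and 65826838 gene reads. Macrophage markers were read in all 4 libraries (14 of 14 listed genes, 7323 to 9970 summed CPM), where CPM is the usual depth-normalized count, here after TMM scaling, a correction for differences in library composition. Lists of other cell types were low: erythroid, B cell and T or NK cell markers each summed to at most 1.17 CPM, dendritic cell markers to at most 2.32, stromal markers to at most 0.0911 and endothelial markers to between 6.10 and 17.1 CPM. Myeloid progenitor markers summed to between 0.139 and 0.255 CPM with Kit, Elane and Ms4a3 at 0 in every library, and mast cell and basophil markers summed to at most 0.015 CPM. Granulocyte markers summed to 12.1 CPM in the Pam3Cys4 library without shRNA and to at most 1.37 CPM in the other libraries. The libraries with shRNA differed from those without it in Y-linked genes. Counts for Ddx3y, Kdm5d and Uty were at most 4, 1 and 1 in the libraries without shRNA. With shRNA, unstimulated cells gave 921, 730 and 320 counts for these genes, and cells given Pam3Cys4 gave 1116, 665 and 334. Eif2s3y, also Y-linked, was near the floor everywhere, with 3 and 6 counts without shRNA and 0 in both libraries with it. Xist had at most 2 counts in any library. Megakaryocyte markers, nearly all of it Pf4, summed to 140 and 223 CPM in the libraries without shRNA, and in those with it to 17.0 and 16.5. Whether the shRNA libraries come from other animals was not determined, and the part of such differences in the shRNA comparisons was not tested. Counts were made per gene in RNA from whole cultures, so fewer cells in G2 and mitosis cannot be told apart from less of these RNAs per cell.

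The promoters of these genes share short sequences that the choice of genes did not use. RefSeq promoter windows of 250 bases before to 50 bases after the transcription start (assembly GRCm38.p6) were available for 32 of the 40 genes, in 34 windows. Windows for Aurkb, Tpx2, Ccna2, Cdc25c, Kif20a, Foxm1, Spc24 and Incenp were not used here. The 150 bases before the start are printed below for 8 genes that differ widely in their Pam3Cys4 response, 5′ to 3′ on the strand of the gene and chosen after their values were seen. Capitals mark the CHR letters TTTGAA, the related letters TTTAAA and the CCAAT box CCAAT, each on either strand, so that TTCAAA and ATTGG mark the reverse strand.
Cdk1, chr10:69352913-69353062, minus strand: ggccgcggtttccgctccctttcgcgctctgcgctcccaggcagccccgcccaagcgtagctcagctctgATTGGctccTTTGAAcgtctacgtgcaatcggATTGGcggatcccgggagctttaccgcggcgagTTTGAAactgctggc
Ccnb1, chr13:100786487-100786636, minus strand: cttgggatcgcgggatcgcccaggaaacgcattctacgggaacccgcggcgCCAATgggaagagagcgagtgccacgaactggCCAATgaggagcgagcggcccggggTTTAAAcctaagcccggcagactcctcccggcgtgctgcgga
Ccnf, chr17:24251410-24251559, minus strand: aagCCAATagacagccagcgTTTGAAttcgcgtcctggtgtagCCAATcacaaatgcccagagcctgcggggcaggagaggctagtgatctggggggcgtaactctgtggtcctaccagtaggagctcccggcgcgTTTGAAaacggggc
Plk1, chr7:122159285-122159434, plus strand: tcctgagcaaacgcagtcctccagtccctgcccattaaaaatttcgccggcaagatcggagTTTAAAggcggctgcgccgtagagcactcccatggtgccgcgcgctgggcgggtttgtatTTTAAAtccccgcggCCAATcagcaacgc
Top2a, chr11:99024190-99024339, minus strand: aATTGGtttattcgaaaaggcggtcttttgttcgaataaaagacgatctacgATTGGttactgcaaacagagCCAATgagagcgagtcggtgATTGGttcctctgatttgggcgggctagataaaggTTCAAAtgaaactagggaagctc
Ube2c, chr2:164769779-164769928, plus strand: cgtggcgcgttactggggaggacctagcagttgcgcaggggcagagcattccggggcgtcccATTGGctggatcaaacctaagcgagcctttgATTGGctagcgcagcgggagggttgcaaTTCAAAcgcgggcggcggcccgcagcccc
Prc1, chr7:80294326-80294475, plus strand: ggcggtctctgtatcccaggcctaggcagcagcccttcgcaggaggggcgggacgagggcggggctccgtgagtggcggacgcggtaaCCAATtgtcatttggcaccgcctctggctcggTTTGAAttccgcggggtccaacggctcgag
Nusap1, chr2:119618148-119618297, plus strand: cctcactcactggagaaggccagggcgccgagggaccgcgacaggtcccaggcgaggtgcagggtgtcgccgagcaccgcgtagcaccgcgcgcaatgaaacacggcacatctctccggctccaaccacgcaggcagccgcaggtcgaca
In the Cdk1 window 2 CCAAT boxes and 2 CHR matches lie within the printed stretch, Ccnb1 holds TTTAAA, and Top2a holds 4 CCAAT boxes. None of these letters stood in the whole Nusap1 window.

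Over whole windows on both strands, TTTGAA was found for 25 of the 32 genes (78.1%), against 17.9% of all 32851 promoter windows and 11.7% of the 9679 windows of measured genes. TTTAAA was found for 9 genes (28.1%), against 13.2% and 8.91%. The letters CCAAT were found for 25 genes (78.1%), against 37.4% and 37.4%, and at least 2 CCAAT boxes in 52.9% of the windows of these genes against 11.7% of all windows. A CCAAT box together with either CHR form was held by 24 genes, or 76.5% of their windows, against 10.7% of all windows and 7.26% of those of measured genes. A pair of CCAAT boxes 31 to 34 bases apart, from first base to first base, was found for 7 genes (Aurka, Ccnb1, Ccnb2, Cdca8, Cdk1, Spc25 and Ube2c). Such pairs stood in 20.6% of the windows of the 32 genes, against 1.2% of all windows and 2.2% of those of measured genes. The GC box GGGCGG was found for 27 genes (84.4%), against 35.7% of all windows and 64.8% of those of measured genes. The E2F letters TTTGGCGC and TTTCCCGC were found for 0 of 32, against 0.51% and 1.07% of all windows. In windows of measured genes their shares were 1.0% and 2.19%. The median GC content was 59.0% in these windows and 61.3% in those of measured genes. A match describes letters in a window and is not a measured binding site.

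**Figure D1:**
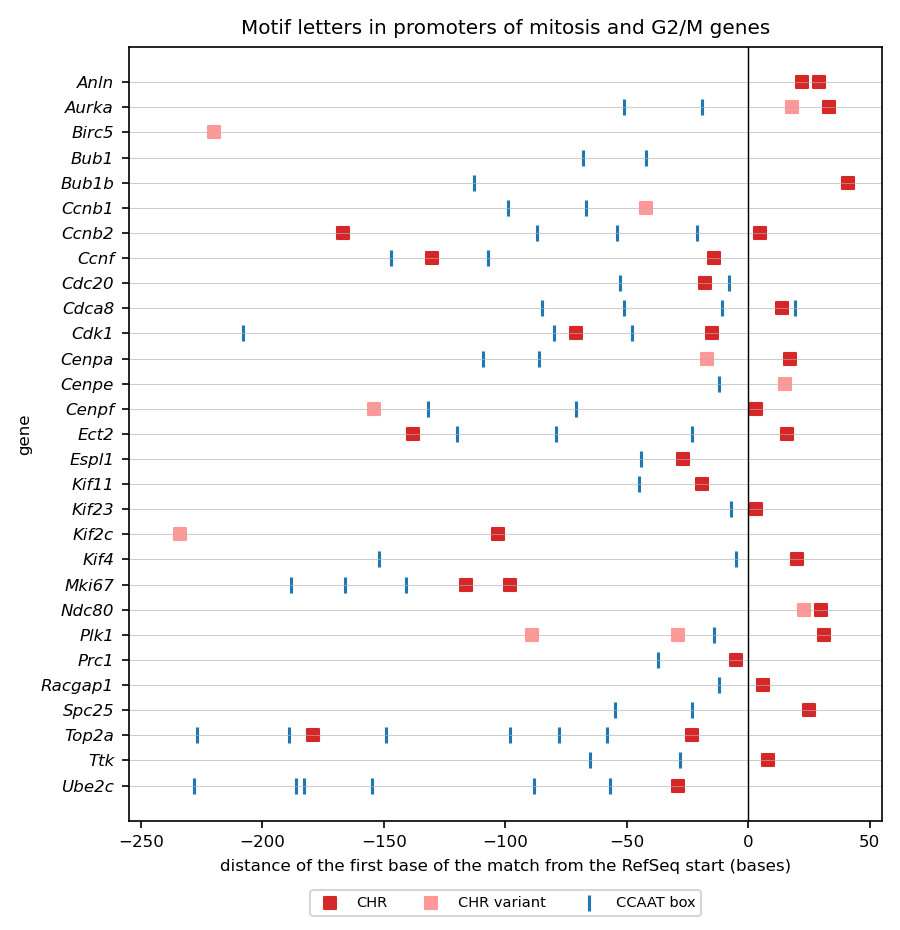
Positions of CHR (TTTGAA), CHR variant (TTTAAA) and CCAAT box matches in RefSeq promoter windows of 29 of the 40 genes, the 29 with a window and at least 1 match. The horizontal axis gives the distance in bases from the transcription start to the first base of a match on either strand. CCAAT boxes lie mostly within 200 bases before the start, with CHR matches closer to it or just after it in most genes.

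The 40 genes took 0.366% of gene reads in unstimulated cells without shRNA (95% Wilson interval 0.364 to 0.367%) and 0.213% after Pam3Cys4 (0.212 to 0.214%). With shRNA they took 0.356% (0.355 to 0.358%) and 0.274% (0.273 to 0.276%). These intervals, and all intervals that follow, cover counting error only. The summed level of the libraries without shRNA was 3323 and 2190 CPM, while those with it reached 3521 and 2969. The Pam3Cys4 library without shRNA was therefore the lowest of the 4, and the unstimulated libraries were close to each other. By gene, the Pam3Cys4 library without shRNA was the lowest of the 4 for 38 of the 40, a share that was not computed over all genes. The exceptions were Anln and Kif11, lowest in the Pam3Cys4 library with shRNA. The highest library was unstimulated with shRNA for 18 genes, unstimulated without shRNA for 17 and Pam3Cys4 with shRNA for 5 (Aurka, Cenpa, Cenpe, Prc1 and Tpx2).

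Compared per kilobase of exon, Plk1 had the highest level in every library, with 109, 67.0, 132 and 122 CPM per kb. Here and below, values for the 4 libraries stand in the order unstimulated without shRNA, Pam3Cys4 without shRNA, unstimulated with shRNA and Pam3Cys4 with shRNA. Cdc20 had 73.1, 53.4, 83.4 and 73.0 CPM per kb, and Incenp 67.2, 49.6, 53.3 and 51.8. At the other end stood 3 subunits of the NDC80 complex, Ndc80 (0.934, 0.570, 0.867 and 0.721 CPM per kb), Spc25 (1.11, 0.751, 1.14 and 0.766) and Nuf2 (1.14, 0.796, 0.833 and 0.905). Their partner Spc24 stood higher, at 11.7, 6.28, 10.0 and 8.43 CPM per kb. The 4 proteins act in 1 complex, which ties kinetochores to microtubules. The median over the 40 genes was 11.8, 8.31, 12.8 and 11.5 CPM per kb. Spc25 stayed under 5 CPM in every library, with 184, 121, 242 and 134 counts, and is given here but left out of counts over measured genes, which need 5 CPM in the higher library of a pair.

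**Figure D2:**
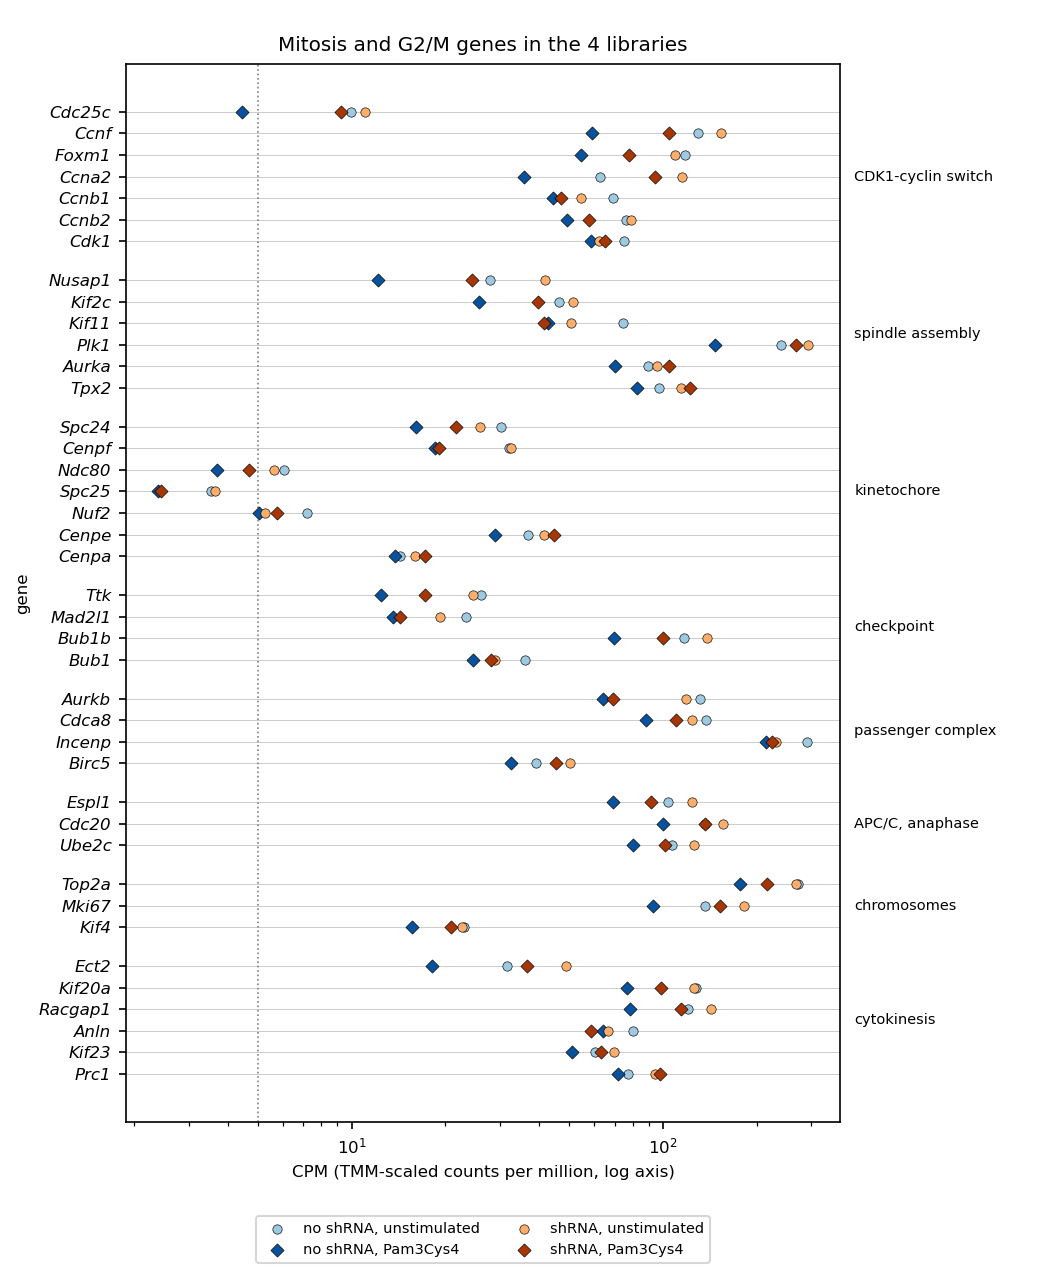
Level of each of the 40 genes in the 4 libraries, in CPM on a log axis, grouped by role, with the dotted line at the 5 CPM minimum. Each point is 1 library, and the dark blue diamond (no shRNA, Pam3Cys4) is the leftmost point for 38 of the 40 genes.

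After Pam3Cys4 the whole group was lower in cells without shRNA. All 40 genes had less CPM after Pam3Cys4. For 39 of them, all but Cenpa, the 95% counting interval of the ratio lay below 1, against 42.5% of all measured genes. The median log2 ratio was -0.63 (1.55-fold lower) over the 39 measured genes, against -0.0008 over all 9555 measured genes, of which 50.1% were below 0. Of the 39, 6 were at least 2-fold lower (15.4%) against 6.51% of all measured genes, and 0 were at least 2-fold higher against 7.07%. With shRNA the same direction was smaller: 33 of the 40 genes were lower after Pam3Cys4, against 48.5% of all measured genes. The median log2 ratio was -0.26 against 0.02 over 9601 genes. At least 2-fold lower were 0 genes against 3.53% of all, and 0 were at least 2-fold higher against 6.3%. With 1 library per group these ratios have no replicate check. Of all genes called without shRNA 52.1% were higher, against 37.6% with library totals and 13.0% when scaled to a housekeeping list; with shRNA the shares were 64.1, 51.5 and 17.4%. Those scalings moved the median of all genes by as much as -0.58. The median of the 40 genes relative to it was between -0.62 and -0.63 without shRNA and between -0.27 and -0.28 with shRNA. A scaling adds the same amount to every log2 ratio of a comparison, so this distance could barely change and is not a check of the fall.

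**Figure D3:**
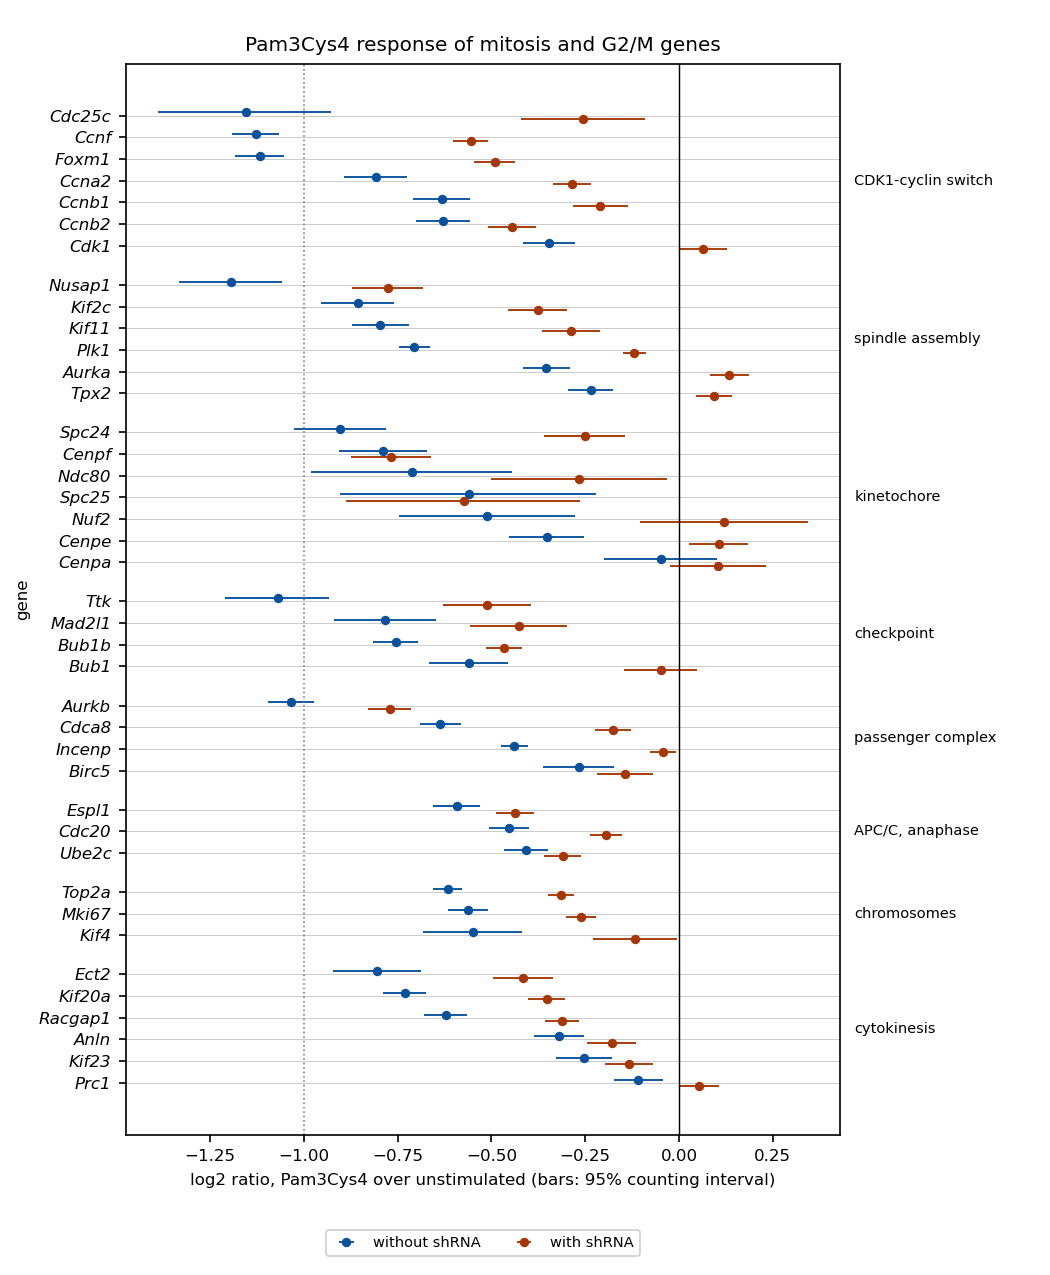
Log2 ratio of Pam3Cys4 over unstimulated for the 40 genes by role, without shRNA (blue) and with shRNA (brown), from 1 library each. Bars are 95% counting intervals, the dotted line marks 2-fold lower, and for 39 genes the brown point lies to the right of the blue one; the exception is Spc25, below the CPM minimum.

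The only test the design allows across genes takes shRNA and stimulation as additive factors in all 4 libraries (edgeR quasi-likelihood test, Benjamini-Hochberg adjustment over 9559 genes). Each factor is judged across the states of the other, and the p-values say nothing of the spread between cultures. Any difference in the Pam3Cys4 response between the shRNA states enters the error. A gene can therefore miss the threshold because its responses differ, as well as because they are small. Under this test 9 of 39 genes fell with Pam3Cys4 (23.1%, against 10.9% of all genes tested) and 0 rose (against 11.9%). A negative log2 change was found for 38 of the 39, against 49.8% of all genes tested. The 9 were Aurkb, Bub1b, Ccnb2, Ccnf, Cenpf, Espl1, Foxm1, Nusap1 and Ttk, and 23 of the 39 had an unadjusted p under 0.05, against 41.3% of all genes tested. The same 9 genes fell under each alternative scaling, filter and tool tried, where the count ranged from 10 to 39 and the share of all genes tested from 9.46 to 59.2%. For the shRNA, 4 of 39 genes rose (10.3%, against 12.3% of all genes tested), and 0 fell (against 8.66%), with 12 of 39 at an unadjusted p under 0.05, a lower share than the 37.4% of all genes tested; DESeq2 on the same design also gave 0 that fell with shRNA and 0 that rose with stimulation.

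Among the 7 genes of the CDK1 and cyclin switch, 3 fell with stimulation (against 10.9% of all genes tested) and 3 were at least 2-fold lower without shRNA (against 6.51% of all measured genes). Ccnf, which encodes the ubiquitin ligase subunit cyclin F, had 129, 59.1, 153 and 104 CPM. Both Pam3Cys4 libraries lay below both unstimulated libraries, by a log2 ratio of -1.13 without shRNA and -0.56 with it (additive log2 change -0.84 ± 0.17 SE, adjusted p = 0.0331, edgeR). Foxm1, the transcription factor of late cell cycle genes, had 118, 54.4, 109 and 77.7 CPM. Its ratios were -1.12 and -0.49 (additive -0.80 ± 0.19 SE, adjusted p = 0.0423, edgeR), again with no overlap between stimulated and unstimulated libraries. Ccnb2, cyclin B2, had 76.3, 49.4, 78.8 and 57.9 CPM, with ratios of -0.63 and -0.45 (additive -0.54 ± 0.13 SE, adjusted p = 0.0445, edgeR). Its sister Ccnb1 had the same ratio without shRNA, -0.63, but -0.21 with it, from 69.0, 44.5, 54.4 and 47.1 CPM, and did not pass the test (adjusted p = 0.112, edgeR).

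Cdc25c, the phosphatase that removes inhibitory phosphates from CDK1, was low, at 9.92, 4.45, 11.1 and 9.25 CPM from 517, 225, 736 and 508 counts. It had the widest gap between the stimulation ratios, -1.16 without shRNA (95% interval -1.39 to -0.93) and -0.26 with it (-0.42 to -0.09), and its additive change of -0.69 did not pass (adjusted p = 0.120, edgeR). Cdk1 itself had 74.9, 58.9, 62.4 and 65.2 CPM. Its log2 ratio was -0.35 without shRNA and 0.06 with it, and the unstimulated library without shRNA stood above the other 3, which lay between 58.9 and 65.2 CPM. Ccna2, cyclin A2, had 62.6, 35.8, 115 and 94.4 CPM, so that both shRNA libraries lay above both libraries without shRNA. Its stimulation ratios were -0.81 and -0.28 (adjusted p = 0.0794, edgeR).

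The 6 spindle assembly genes ranged from -1.19 to -0.24 without shRNA and from -0.78 to 0.13 with it. Nusap1, a microtubule-bundling protein of the spindle, had 27.9, 12.2, 41.8 and 24.4 CPM and the lowest ratio of the 40 genes in both states, -1.19 (2.29-fold lower) and -0.78 (1.71-fold lower). Other genes lay within its interval, without shRNA Cdc25c, Ccnf, Foxm1 and Ttk and with shRNA Aurkb and Cenpf, both at -0.77. Nusap1 fell with stimulation (additive -0.98 ± 0.16 SE, adjusted p = 0.0200, edgeR), and it is the gene whose printed promoter held none of the searched letters. Plk1, the kinase that matures centrosomes and drives mitotic entry, had 240, 147, 292 and 268 CPM. Its ratio was -0.71 without shRNA and -0.12 with it, and the Pam3Cys4 library without shRNA stood well below the other 3. Kif2c, a microtubule-depolymerizing kinesin, had ratios of -0.86 and -0.38, and Kif11, the motor that pushes spindle poles apart, -0.80 and -0.29.

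Aurka, the centrosomal Aurora kinase, and its activator Tpx2 were lower after Pam3Cys4 without shRNA and higher with it. Aurka had 89.6, 70.1, 95.5 and 105 CPM, log2 ratios of -0.35 (95% interval -0.42 to -0.29) and 0.13 (0.08 to 0.19). Tpx2 had 96.8, 82.2, 115 and 122 CPM, ratios of -0.24 and 0.09. Under library totals Aurka alone of the 40 genes kept a ratio above 0 with shRNA, and under housekeeping scaling none did. Neither gene passed the additive test (adjusted p = 0.642 and 0.722, edgeR).

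Of the 7 kinetochore genes 6 were tested, and Cenpf fell with stimulation (against 10.9% of all genes tested). Cenpf, a large coiled-coil protein of the outer kinetochore, had 32.0, 18.5, 32.4 and 19.0 CPM. Its ratios of -0.79 without shRNA and -0.77 with it differed by less than counting error (additive -0.78 ± 0.13 SE, adjusted p = 0.0204, edgeR). Spc24 had 30.2, 16.1, 25.8 and 21.7 CPM and ratios of -0.90 and -0.25, while Ndc80 had 6.06, 3.70, 5.63 and 4.68 CPM and ratios of -0.71 and -0.27. Nuf2, the third subunit, rested on 375, 255, 352 and 315 counts and had ratios of -0.51 (-0.75 to -0.28) and 0.12 (-0.10 to 0.34). For Spc25 the ratios were -0.56 and -0.57, with intervals reaching from -0.90 to -0.22 and from -0.89 to -0.26.

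Cenpa and Cenpe had small ratios. Cenpa, the histone H3 variant that marks centromeres, had 14.3, 13.8, 16.0 and 17.2 CPM, and its ratio without shRNA, -0.05 (-0.20 to 0.10), was the smallest of the 40 and did not exclude 0. Cenpe, a kinesin that brings chromosomes to the spindle equator, had 36.8, 28.8, 41.5 and 44.7 CPM, with ratios of -0.35 and 0.11. For both genes the Pam3Cys4 library with shRNA was the highest of the 4.

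Of the 4 checkpoint genes, which hold anaphase back until all chromosomes are attached, 2 fell with stimulation (against 10.9% of all genes tested). Ttk, the kinase that starts checkpoint signalling, had 26.0, 12.4, 24.5 and 17.2 CPM and ratios of -1.07 and -0.51 (additive -0.79 ± 0.19 SE, adjusted p = 0.0444, edgeR). Bub1b, which encodes BUBR1 of the checkpoint complex, had 117, 69.5, 138 and 100 CPM and ratios of -0.75 and -0.47 (additive -0.61 ± 0.13 SE, adjusted p = 0.0357, edgeR). Both Pam3Cys4 libraries lay below both unstimulated ones for each of them. Mad2l1, the MAD2 subunit, had 23.4, 13.6, 19.2 and 14.3 CPM and ratios of -0.78 and -0.43, just short of the threshold (adjusted p = 0.0568, edgeR). Bub1, a kinase at the kinetochore, had 36.2, 24.5, 28.9 and 27.9 CPM and ratios of -0.56 and -0.05, so that with shRNA no difference was detectable within counting error.

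In the chromosomal passenger complex, which corrects faulty attachments, the kinase and its 3 partners differed. Aurkb, the catalytic subunit, had 131, 64.1, 118 and 69.2 CPM. It was 2.05-fold lower without shRNA and 1.71-fold lower with it, and fell with the smallest adjusted p of the group (additive -0.90 ± 0.13 SE, adjusted p = 0.0159, edgeR). Incenp, the scaffold, had 291, 215, 231 and 224 CPM and ratios of -0.44 and -0.04. Cdca8 (borealin) had 137, 88.4, 124 and 110 CPM and ratios of -0.64 and -0.17, and Birc5 (survivin) 39.2, 32.6, 50.2 and 45.5 CPM and ratios of -0.27 and -0.14. None of the 3 partners passed the test, with adjusted p from 0.119 to 0.272 (edgeR).

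The anaphase genes had close ratios without shRNA. Espl1, separase, which cuts cohesin, had 104, 69.0, 124 and 91.7 CPM, ratios of -0.59 and -0.44, and fell (additive -0.51 ± 0.12 SE, adjusted p = 0.0428, edgeR). Cdc20, the mitotic activator of the APC/C, had 137, 99.8, 156 and 136 CPM and ratios of -0.45 and -0.19. Ube2c, the ubiquitin-conjugating enzyme of the APC/C, had 107, 80.3, 126 and 101 CPM and ratios of -0.41 and -0.31. For Espl1 and Ube2c both Pam3Cys4 libraries lay below both unstimulated ones, whereas Cdc20 with shRNA and Pam3Cys4 was level with the unstimulated library without shRNA.

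Genes of chromosome structure gave ratios from -0.55 to -0.62 without shRNA and from -0.12 to -0.31 with it. Top2a, which untangles sister chromatids, had 271, 177, 268 and 215 CPM. Mki67, the proliferation antigen that coats mitotic chromosomes, had 137, 92.8, 182 and 152 CPM, and the chromokinesin Kif4 22.9, 15.6, 22.7 and 20.9 CPM. None of the 3 passed the stimulation test (adjusted p from 0.0635 to 0.200, edgeR), where 10.9% of all genes tested fell.

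Among the 6 cytokinesis genes none passed the stimulation test, where 10.9% of all genes tested fell. Their ratios without shRNA ranged from -0.80 to -0.11. Ect2, the exchange factor that activates RhoA at the cleavage furrow, had 31.6, 18.1, 48.9 and 36.6 CPM and ratios of -0.80 and -0.42 (adjusted p = 0.0505, edgeR). Kif20a, a kinesin that carries the passenger complex to the midzone, had 128, 76.9, 126 and 98.8 CPM and ratios of -0.73 and -0.35 (adjusted p = 0.0557, edgeR). The centralspindlin subunits differed, with Racgap1 at -0.62 and -0.31 and its partner kinesin Kif23 at -0.25 and -0.13. Anln, the furrow scaffold anillin, had 80.1, 64.3, 66.7 and 58.9 CPM and ratios of -0.32 and -0.18. Prc1, which bundles midzone microtubules, had 77.5, 71.9, 94.5 and 98.0 CPM and the second smallest ratio without shRNA, -0.11 (-0.17 to -0.04), with 0.05 with shRNA.

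The stimulation ratios with and without shRNA share no library. Over the 40 genes they went together, with Pearson's r of 0.75 and Spearman's rho of 0.73 and the same sign for 33 genes, which is a description across genes that are not independent replicates. Over the 9142 genes measured in both states r was 0.86 and rho 0.79, and 80.4% had the same sign, so the 82.5% of these 40 genes is close to the background. Genes low after Pam3Cys4 without shRNA, such as Nusap1, Aurkb and Ccnf, were thus among the lowest with shRNA too, although Cdc25c and Spc24 were not.

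On the log2 scale the stimulation ratio was less negative with shRNA, or above 0, for every measured gene. The ratio of ratios (Pam3Cys4 response in shRNA cells divided by that in cells without it) was above 1 for 39 of 39 genes, against 53.1% of 9857 genes of the whole table. It had a counting interval above 1 for 37 of the 39, against 35.2% of the 9857. Its median log2 value was 0.40, against 0.02 over all genes. The log2 ratio of ratios was above 0 for all 39 under library totals, DESeq2 size factors and housekeeping scaling too. Each of these scalings shifts every value by the same amount, so this is no independent check of the difference. No gene reached 2-fold (0 of 39 larger against 1.94% of all genes, and 0 smaller against 1.64%). The values were largest for Cdc25c (0.90, 95% interval 0.62 to 1.18), Spc24 (0.65), Nuf2 (0.63) and Foxm1 (0.63), and smallest for Cenpf (0.02, -0.14 to 0.18), Ube2c (0.10), Kif23 (0.12) and Birc5 (0.12). Spc25, below the minimum, had near-equal ratios in both states. With 1 library per group, no residual is left to test this difference, and leaving out any library leaves no value for it.

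Without stimulation the shRNA ratios of these genes lay on both sides of 0, from -0.55 to 0.88 on the log2 scale. Counting intervals lay above 0 for 19 of 39 measured genes and below 0 for 12 (against 43.3% and 38.1% of all). The median log2 ratio of shRNA over no shRNA was 0.09 over 39 measured genes (-0.03 under library totals) against 0.02 over 9651 genes, with 23 of the 40 genes above 0 and 17 below, close to the 52.6% above 0 among all measured genes. None was at least 2-fold higher (against 7% of all measured genes) or lower (against 4.82%). After Pam3Cys4 the median was 0.42 over 38 measured genes, against 0.05 over 9702, and 38 of the 40 genes were above 0, with counting intervals above 0 for 33 (against 54.3% and 45.9% of all measured genes). At least 2-fold higher were 3 of 38 (7.89%, against 9% of all measured genes, so no larger a share than the background), and 0 were at least 2-fold lower (against 5.58%). The difference between these shRNA ratios is the same number as the ratio of ratios above, since all 4 libraries enter both.

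Ccna2 differed most. Its CPM of 62.6 and 35.8 without shRNA and 115 and 94.4 with it gave 1.83-fold (log2 0.88) before and 2.64-fold (1.40) after Pam3Cys4, and it rose with shRNA (additive 1.14 ± 0.17 SE, adjusted p = 0.0142, edgeR). Ect2 was 1.54-fold higher before and 2.02-fold higher after Pam3Cys4 and also rose (0.82 ± 0.15 SE, adjusted p = 0.0256, edgeR). Nusap1 followed, at 0.58 and 1.00 on the log2 scale (0.79 ± 0.16 SE, adjusted p = 0.0317, edgeR). Mki67, at 0.41 and 0.71, was the fourth gene that rose (0.56 ± 0.13 SE, adjusted p = 0.0436, edgeR), and it no longer passed under library totals or housekeeping scaling. The share of genes that rose, 4 of 39, is close to the background over all genes.

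Cdc25c was the other gene at least 2-fold higher after Pam3Cys4, 2.08-fold against 1.11-fold before. Just under that mark stood Nusap1, Plk1 (0.86) and Ccnf (0.82), which before stimulation were at 0.58, 0.28 and 0.25. Under library totals Ccna2 alone stayed at least 2-fold higher. Lower in unstimulated shRNA cells were Kif11 (-0.55, 95% interval -0.62 to -0.49), Nuf2 (-0.45), Ccnb1 (-0.34) and Incenp (-0.34). After Pam3Cys4 the ratio for Kif11 was -0.04 (-0.13 to 0.04), and Anln (-0.13, -0.20 to -0.05) was the only gene whose interval lay below 0. Cyclins thus differed among themselves: Ccna2 and Ccnf were higher with shRNA in both states, Ccnb2 was within 0.05 in unstimulated cells, and Ccnb1 was lower there.

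**Figure D4:**
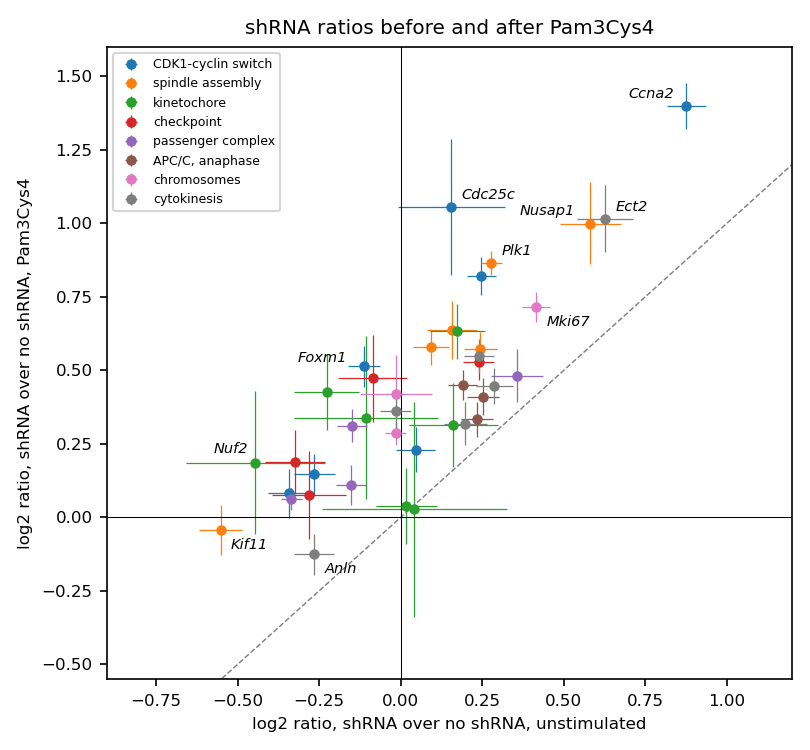
Log2 ratio of shRNA over no shRNA for the 40 genes, in unstimulated cells (horizontal) and after Pam3Cys4 (vertical), coloured by role, with bars for 95% counting intervals. The dashed line marks equal ratios, all genes but Spc25 lie above it, and Ccna2 stands farthest out at 0.88 and 1.40.

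Other cell cycle genes were taken from lists written with earlier results of these data known. Of 86 other G2/M and mitosis genes, 77 were measured in the stimulation comparison without shRNA, with a median log2 ratio of -0.63 and 12 at least 2-fold lower (15.6%, against 6.51% of all measured genes). With shRNA the median was -0.27, with 3 at least 2-fold lower, a share close to the 3.53% of all genes. In the additive test 22 of 77 fell (28.6%, against 10.9%) and 3 rose (3.9%, against 11.9%). The largest ratios without shRNA were those of Oip5, a centromere protein, at -1.58, the microtubule-binding Psrc1 at -1.48, the condensin II subunit Ncapg2 at -1.45 and the kinetochore subunit Cenph at -1.44. Ncapg2 had 81.6, 29.8, 78.2 and 37.2 CPM and fell (-1.26 ± 0.15 SE, adjusted p = 0.0112, edgeR). The 3 that rose, named after their values were seen, were Zwint, a kinetochore protein (0.60), Ckap2l, a spindle protein (0.91), and Pttg1, which encodes securin (0.71).

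S phase genes were lower by more. All 40 listed S phase genes were lower after Pam3Cys4 without shRNA, with a median of -0.995 and 19 at least 2-fold lower (47.5%, against 6.51% of all measured genes). With shRNA 38 of 40 were lower, with a median of -0.60 and 6 at least 2-fold lower (against 3.53%). In the additive test 25 of 40 fell (62.5%, against 10.9% of all genes tested and 23.1% of the mitosis genes), a difference between lists that was not tested. Tk1, thymidine kinase, had 80.7, 21.6, 122 and 44.5 CPM, and fell (-1.67 ± 0.16 SE, adjusted p = 0.00738, edgeR). The ratio of ratios had a median of 0.27 for S phase genes and 0.31 for the other G2/M genes, beside 0.40 for the 40 genes.

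Of 16 measured genes of the MuvB, DREAM and NF-Y list, 6 were at least 2-fold lower without shRNA (37.5%, against 6.51% of all measured genes) and 3 with it (against 3.53%), with medians of -0.59 and -0.40. In the additive test 6 fell (37.5%, against 10.9%). E2f8, a repressor of E2F targets, had 54.1, 13.6, 58.4 and 28.2 CPM and fell (-1.51 ± 0.25 SE, adjusted p = 0.0213, edgeR). Its relative E2f7 had 25.0, 7.76, 17.7 and 7.74 CPM, and the pocket protein gene Rbl2 35.7, 13.7, 38.5 and 19.7. Tfdp2, a dimerization partner of E2F proteins, had the lowest ratios of the list, -2.14 and -1.38. Named by role after their values were seen, the NF-Y genes Nfya, Nfyb and Nfyc had additive log2 changes of -0.02, 0.29 and 0.20. The MuvB core genes Lin9, Lin37, Lin54 and Rbbp4, named likewise, had -0.57, -0.18, -0.31 and -0.19, and E2f4 had 0.20. None of these genes passed the stimulation test (adjusted p from 0.111 to 0.906, edgeR). The constant subunits of the APC/C, listed together with its activator gene Fzr1, had medians of -0.09 and -0.02 over 13 measured genes. Of these, 1 fell (7.69%, against 10.9% of all genes tested), Anapc11 (-0.54 ± 0.12 SE, adjusted p = 0.0355, edgeR).

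**Figure D5:**
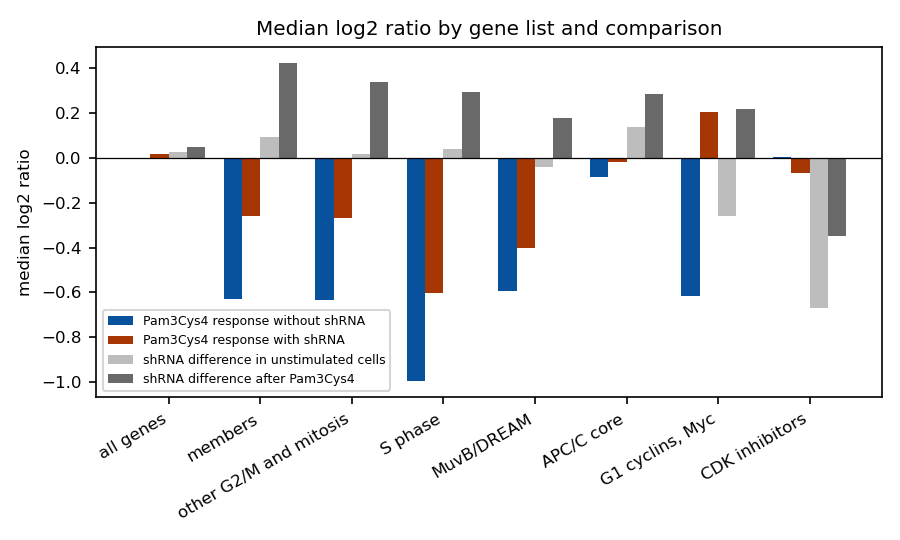
Median log2 ratio of each gene list in the 4 comparisons, over the measured genes of the list, with all measured genes at the left. Bars start at 0, and the members bar (the 40 mitosis and G2/M genes) reads -0.63, -0.26, 0.09 and 0.42.

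Genes with and without both promoter elements had close medians. The 24 genes with a CCAAT box and either CHR form had a median stimulation ratio of -0.60 without shRNA (range -1.13 to -0.05) and -0.27 with it. The 8 genes with a window but without both had medians of -0.64 (-1.19 to -0.27) and -0.22. Ccnf, with 2 CHR matches and 2 CCAAT boxes in the printed stretch, and Nusap1, with none of these letters, were both more than 2-fold lower after Pam3Cys4 without shRNA. Prc1, which holds both, was at -0.11.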

How the data were processed

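The 4 deposited tables hold read counts per Ensembl gene, made by the authors with HTSeq from TopHat alignments to NCBIM37 after CASAVA 1.8, per the submitters' processing notes. Reads were 50 bp from an Illumina mRNA kit, per the labels' protocols. Which annotation and strand setting they used is not given in the sources used here. Between 32.5 and 34.4% of each table's total named no gene and stayed out of library sizes; reads aligned to several places made up 27.0 to 29.9%, so genes with close copies are undercounted. Of 37681 gene IDs, 32642 were given symbols, and exon lengths, from GENCODE vM21, which is on a later build than the counts. The 40 genes, the other lists (316 of 318 listed genes matched) and the settings were chosen with earlier results of these data known.

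Counts were scaled with TMM in edgeR 4.0.16 (R 4.3.3; factors 1.10, 0.972, 1.01 and 0.924). A ratio of 2 libraries was given an exact 95% conditional binomial interval, and a gene counted as measured if its higher library reached 5 CPM, and as called at 2-fold or more with an interval that excluded 1. The ratio of ratios, with a delta-method interval, needed at least 10 counts in each library. With 1 library per group these values have no test, and intervals cover counting error only. The additive edgeR quasi-likelihood test, run on the 9559 genes that reached 5 CPM in 2 or more libraries at an adjusted p of 0.05, had degrees of freedom of 1 (residual) and 3.76 (prior). The common BCV, the biological coefficient of variation, was 0.137. Alternatives were library totals, DESeq2 1.42.0 size factors and Wald test, scaling to a housekeeping list, other count minimums and a 1.5-fold threshold.

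All 40 genes are named, and of each other list up to 4 measured genes per comparison with the largest absolute log2 ratio; exceptions are stated. Promoter sequences are RefSeq windows on GRCm38.p6, matched by symbol.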

Additional observations from a re-analysis of the deposited data

Results flagged for a closer look

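For 3 genes the Pam3Cys4 ratio lay below 1 without shRNA and above 1 with shRNA, each with a 95% counting interval that excluded 1. Stimulation ratios without and with shRNA had the same sign for 82.5% of the 40 genes, against 80.4% of 9142 genes measured in both. The log2 ratio was -0.35 against 0.13 for Aurka (log2 ratio of ratios 0.49), -0.35 against 0.11 for Cenpe (0.46) and -0.24 against 0.09 for Tpx2 (0.33). The sign with shRNA turned negative for Cenpe and Tpx2 under library totals and for all 3 under housekeeping scaling. For 15 genes the shRNA library was the lower one before Pam3Cys4 and the higher one after it, and for 7 of them both counting intervals excluded 1. The shRNA ratios before and after Pam3Cys4 had the same sign for 62.5% of the 40 genes, against 78.2% of 9339 genes measured in both. How often both intervals exclude 1 over all genes was not computed. The log2 ratio of shRNA over no shRNA went from -0.15 to 0.11 for Aurkb (log2 ratio of ratios 0.26), from -0.32 to 0.19 for Bub1 (0.51) and from -0.15 to 0.31 for Cdca8 (0.46). It went from -0.26 to 0.15 for Cdk1 (0.41), from -0.11 to 0.51 for Foxm1 (0.63), from -0.34 to 0.06 for Incenp (0.40) and from -0.23 to 0.43 for Spc24 (0.65). For Incenp the value after Pam3Cys4 was below 0 under library totals. The difference was not tested for any of the 10 pairs, since each group holds 1 library.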

How the results depend on the processing

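In the additive test no change that passed was reversed by an alternative. Changes near 0 that had not passed did turn: for Cenpa stimulation went from 0.03 to -0.13 with library totals and to -0.51 with housekeeping scaling, where it passed. For shRNA the change became -0.0149 for Cdca8, -0.0686 for Cenpf and -0.0002 for Spc24 with library totals, and for Cenpf -0.0078 with housekeeping scaling and -0.0101 by DESeq2. With library totals the median log2 ratio of the 40 genes was -0.81 for stimulation without shRNA, -0.39 with shRNA, -0.0275 for shRNA before and 0.35 after Pam3Cys4, and after Pam3Cys4 the shRNA library was at least 2-fold higher for 1 gene. With housekeeping scaling the medians were -1.19, -0.77 and 0.0288 for the first 3 comparisons, with 29 and 5 genes at least 2-fold lower after Pam3Cys4 without and with shRNA (against 22.8 and 14.6% of all measured genes). At a 1.5-fold threshold, 23 and 3 genes were lower after Pam3Cys4 (against 15.6 and 11% of all), 2 and 9 higher with shRNA before and after it (13.2 and 17.0%), and 5 had a larger ratio of ratios (7.21%). Genes that fell with stimulation in the additive test numbered 23 with library totals (against 21.1% of all genes tested), 39 with housekeeping scaling (59.2%), 19 with no filter (9.46%) and 16 by DESeq2 (12.2%). Of the 160 single-gene ratios, DESeq2 size factors moved 0 beyond their counting interval, library totals 126 and housekeeping scaling 101. The causes were not tested. The housekeeping scale is a sum of counts, and Actb held most of it. In unstimulated cells without shRNA it had 844603 counts, against 174568 for Rplp0, the next of the list. Actb was itself higher after Pam3Cys4, with log2 ratios of 0.73 without shRNA and 0.64 with it, so this scaling largely follows 1 gene that rose. No paired analysis was possible because the labels give no replicate numbers, and no library could be left out, since each group has 1 and the additive test would keep no residual degree of freedom. Depth limits Spc25, Ndc80, Nuf2 and Cdc25c, which rest on 121 to 736 counts per library.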

Other observations

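Upstream of mitosis, 2 regulators of G1 differed far more between shRNA states than any of the 40 genes. Ccnd2, which encodes cyclin D2, had 16283 and 9895 counts without shRNA (unstimulated and Pam3Cys4) against 153 and 109 with shRNA, 136-fold and 98.6-fold lower. It fell with shRNA in the additive test (log2 change -6.86 ± 0.19 SE, adjusted p = 0.000421, edgeR). Ccnd1 and Ccnd3, the other D-type cyclins, had 1079 and 127 CPM in unstimulated cells without shRNA, 568 and 77.0 CPM after Pam3Cys4, 591 and 118 CPM in unstimulated cells with shRNA and 691 and 135 CPM after Pam3Cys4. Neither passed the test for shRNA (adjusted p = 0.511 and 0.346, edgeR). Cdkn2b, the CDK4 and CDK6 inhibitor p15, had 45.0 and 53.7 CPM in the libraries without shRNA against 7.66 and 8.62 in those with it, and fell with shRNA (-2.60 ± 0.13 SE, adjusted p = 0.000792, edgeR). A cyclin and an inhibitor of its kinase were thus both lower with shRNA.

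Pttg1, securin, went the other way. It had 208 and 311 counts without shRNA and 1148 and 1624 with it, 4.32-fold and 4.81-fold higher, and rose with shRNA (2.19 ± 0.16 SE, adjusted p = 0.0016, edgeR), whereas its target Espl1 was 1.19-fold and 1.33-fold higher and did not pass (adjusted p = 0.119, edgeR). Mad1l1, the partner that holds MAD2 at kinetochores, fell with shRNA (-0.90 ± 0.17 SE, adjusted p = 0.0266, edgeR), from 83.7 and 46.3 CPM to 37.7 and 29.7. E2f2, an activator of S phase genes, had 49.8 and 22.0 CPM in the libraries without shRNA against 89.4 and 73.6 in the others, and rose (1.29 ± 0.24 SE, adjusted p = 0.0266, edgeR). Myc rose with Pam3Cys4 (1.47 ± 0.24 SE, adjusted p = 0.0199, edgeR), from 17.6 to 36.3 CPM without shRNA and from 11.5 to 42.9 CPM with it, while Cdkn2c, the inhibitor p18, fell with Pam3Cys4 (-1.37 ± 0.17 SE, adjusted p = 0.0122, edgeR).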
